A study of Mus musculus with 4 samples.

Results

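The BCL2 family was examined by RNA-seq in 4T1 cells, a widely used mouse line from a mammary carcinoma. The family was taken as 10 genes by symbol, of the 24411 genes listed per library, and every one of the 10 had an entry. They were 4 pro-survival genes (Bcl2, Bcl2l1, Bcl2l2 and Mcl1), 2 genes for pore-forming proteins (Bax and Bak1) and 4 genes for BH3-only proteins (Bad, Bcl2l11, Bbc3 and Pmaip1). The study compared 2 control libraries with 2 libraries whose genotype is given as CD95ko, in order to see what differs after disruption of Fas, the gene for the death receptor CD95. Of the RNA sources named in the protocols, one was untransduced 4T1 and one was the line carrying lentiCas9-Blast, selected with blasticidin. The titles Ctrl1 and Ctrl2 do not tell which control is which. The CD95ko sources were clones grown from single sorted cells of the Cas9 line after transfection with a pair of guide RNAs against exon 9, so they share the Cas9 transgene, and each clone gave 1 library. Both groups were grown in the same medium, and no death ligand or drug is mentioned. The p-values below therefore rest on the spread between lines and clones, not between repeated cultures of one clone. For each gene, limma also draws on the spread of the other tested genes. Only the CD95ko sources are described as clones, so effects of cloning and of Fas disruption cannot be told apart.

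BCL2 family proteins set whether the outer mitochondrial membrane is breached during apoptosis. Pro-survival members hold BAX and BAK, the proteins that form pores, in check, and BH3-only proteins, induced or released by stress, bind the pro-survival members or activate BAX and BAK directly. Released cytochrome c then assembles the apoptosome, which activates caspases. Death receptors such as CD95 can feed into the same step through the BH3-only protein BID. Most of this control acts on the proteins, through binding, phosphorylation and degradation, and transcript levels show only one layer of it.

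The level of Fas itself was 49.4 TPM in control 1, 39.2 TPM in control 2, 15.8 TPM in the library labelled CD95ko 1 and 49.5 TPM in the library labelled CD95ko 2. TPM, the unit of every level here, scales reads by transcript length and by library. Fas was thus lower in 1 of the 2 libraries labelled CD95ko and not in the other. Its log2 fold change was -0.63 ± 0.54 SE (limma adjusted p = 0.615). A level per gene does not show which exons the reads cover. Whether the exon targeted by the guide RNAs was disrupted was therefore not tested in either library labelled CD95ko. Directions below refer to the libraries as labelled. The median of the tested genes was 16.3 TPM in control 2 and 21.3 to 22.9 TPM in the other libraries. Of 8 epithelial markers, 7 were at 1 TPM or more in every library and Krt5 was listed at 0 in all 4. The summed epithelial markers were 4574 and 4596 TPM in the controls and 8141 and 12594 TPM in the libraries labelled CD95ko. A single marker, Krt18, reached 5160 TPM, so the sum need not reflect every marker. All 7 leukocyte markers were listed at 0 in every library, 4 endothelial markers summed to at most 0.28 TPM, and 5 fibroblast markers summed to 0.97 to 4.52 TPM. In cultures measured in bulk, fewer cells of a state and less RNA per cell cannot be told apart. The part of the difference in summed epithelial markers in the values below was not tested.

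The family contained 2 members whose libraries labelled CD95ko lay on one side of both controls, Bax below and Bcl2l11 above. Among all tested genes, 18.3% lay below in this way and 29.2% above. The upstream sequences of Bax and Bcl2l11 are shown because of that separation. They are the 250 bases before the outermost RefSeq start, from RefSeq on GRCm38.p6, 5′ to 3′ on the strand of the gene. For Bax the window is chr7:45466899-45467148 on the reverse strand, and for Bcl2l11 it is chr2:128125788-128126037 on the forward strand. Capitals mark an E-box in Bax and a FOXO core in Bcl2l11, the latter read as its reverse complement.
Bax: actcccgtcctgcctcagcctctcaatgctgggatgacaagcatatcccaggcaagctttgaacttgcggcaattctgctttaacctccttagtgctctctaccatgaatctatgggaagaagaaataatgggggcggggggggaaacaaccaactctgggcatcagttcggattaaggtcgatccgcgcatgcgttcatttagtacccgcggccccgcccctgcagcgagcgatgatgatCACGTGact
Bcl2l11: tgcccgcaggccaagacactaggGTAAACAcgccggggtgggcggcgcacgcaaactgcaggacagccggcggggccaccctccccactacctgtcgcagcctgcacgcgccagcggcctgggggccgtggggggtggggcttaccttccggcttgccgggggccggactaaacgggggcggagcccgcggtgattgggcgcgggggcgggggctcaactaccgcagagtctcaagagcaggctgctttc

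These letters were searched on both strands in 15 such windows of 9 members and in all 32851 windows of the RefSeq table. The E-box CACGTG, the palindrome bound by MYC and other helix-loop-helix factors, begins 9 bases before the Bax start. It was in 2 of the 15 windows, of Bax and Bbc3, and in 6.02% of all windows. The FOXO core TGTTTAC, the letters read by forkhead factors of the FOXO class, begins 227 bases before the Bcl2l11 start. It was in 2 of the 15 windows, of Bcl2l11 and Bbc3, and in 3.17% of all windows. The p53 decamer was in 1 of the 15 windows, that of Bax, and in 7.13% of all windows. The GC box GGGCGG was in 10 of the 15 windows and in 32.7% of all, the CCAAT box in 4 of the 15 and 33.8% of all, and the AP-1 site TGAGTCA in 0 of the 15 and 4.46% of all. A match to these letters describes the window and shows no binding.

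The family spanned a wide range of levels per transcript length. Bax was the most abundant member in every library, with a mean over the 4 libraries of 223 TPM, above 94.2% of the 11167 tested genes. A group of 3 followed, Mcl1 at 91.7 TPM, Bak1 at 88.8 TPM and Bcl2l1 at 88.6 TPM, and the ranges of these 3 over the libraries overlapped. Bad had a mean of 64.6 TPM and Bbc3 of 39.4 TPM, again with overlapping ranges. The range of Bad also overlapped those of the 3 genes above it, and that of Bbc3 overlapped those of Bcl2l2 and Bcl2l11. In control 1 Bad, at 91.7 TPM, was above Bak1 and Bcl2l1. Bcl2l2 (20.8 TPM) and Bcl2l11 (16.3 TPM) overlapped as well, and Bcl2 had the lowest mean above 0, at 9.03 TPM, although its range overlapped that of Bcl2l11, which was below it in control 2. Pmaip1, which encodes NOXA, the BH3-only protein that binds MCL1, was listed at 0 in all 4 libraries, as were 46.9% of the genes in the tables. It could not be tested, and 9 of the 10 members passed the filter on low values.

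**Figure D1:**
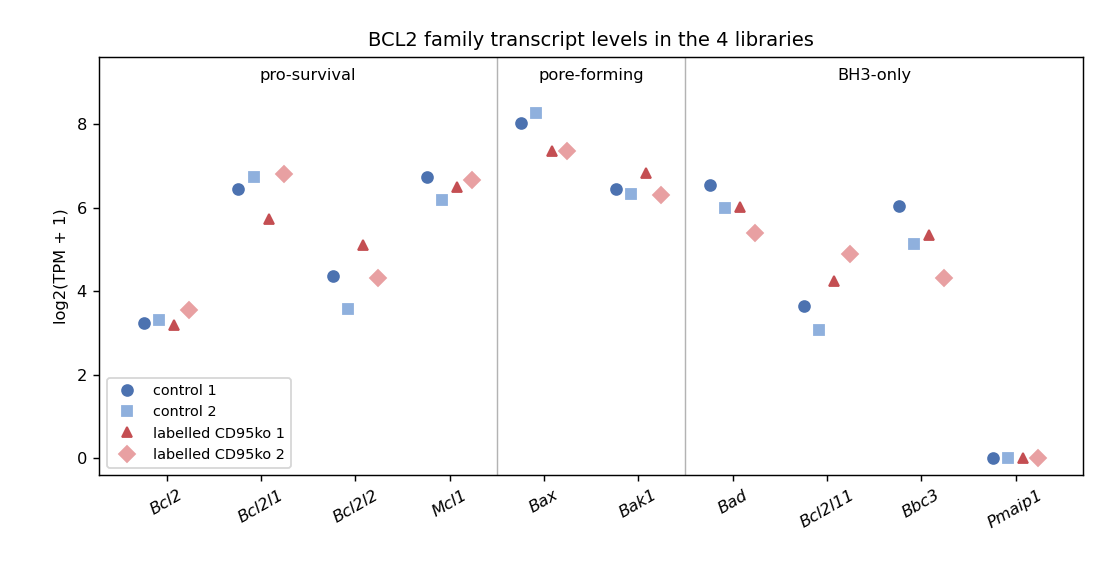
Level of each BCL2 family member as log2(TPM + 1) (vertical axis) in control 1, control 2 and the libraries labelled CD95ko 1 and CD95ko 2, grouped by role. Bax is the highest member and lies lower in both libraries labelled CD95ko, Bcl2l11 lies higher in both, and Pmaip1 is at 0 throughout.

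None of the 9 tested members passed an adjusted p of 0.05 between the groups in limma, where 0.0537% of all tested genes did. At an unadjusted p under 0.05 there were 2 members, Bax and Bcl2l11, against a background of 14.9% of tested genes, 9.25% higher and 5.68% lower in the libraries labelled CD95ko. That split was 1033 genes higher and 634 lower, and under quantile normalization it was 967 and 895. The groups did not overlap for the same 2 members. Among all tested genes, both libraries labelled CD95ko lay above both controls for 29.2% and below both for 18.3%, so 1 of 9 members in each direction was below the background. Group means were higher for 5 members and lower for 4, and the median log2 fold change of the 9 was 0.10, beside 0.13 for all tested genes. Relative to that median, Bax stood at -0.92 and Bcl2l11 at 1.09. The 2 members at an unadjusted p under 0.05 became 0 when either control library was left out.

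Bcl2 encodes the founding pro-survival protein. Its level was 8.38 TPM in control 1, 8.88 TPM in control 2, and 8.16 and 10.7 TPM in the libraries labelled CD95ko 1 and 2. The groups overlapped, with the lowest and the highest value both in libraries labelled CD95ko. The group difference on the log2 scale was 0.10 (95% interval -1.06 to 1.27, limma adjusted p = 0.948), and quantile normalization turned it to -0.13. Over the 4 libraries Bcl2 varied by 1.31-fold, the least of the 9 tested members.

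Mcl1 encodes a short-lived pro-survival protein that is quickly lost when its synthesis stops. It was at 106 TPM in control 1, 71.8 TPM in control 2, and at 89.3 and 99.9 TPM in the libraries labelled CD95ko 1 and 2. Both libraries labelled CD95ko lay between the controls. Between the groups the log2 fold change was 0.12 (95% interval -0.66 to 0.90, limma adjusted p = 0.905), and it was -0.16 without control 2.

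Bcl2l1 encodes BCL-XL, the pro-survival protein often prominent in epithelial tumours. It was at 86.8 and 104 TPM in the controls, at 52.2 TPM in the library labelled CD95ko 1 and at 111 TPM in the library labelled CD95ko 2. The library labelled CD95ko 1 was thus the lowest of the 4 and the library labelled CD95ko 2 the highest, a difference of 1.08 on the log2(TPM + 1) scale between libraries of one group. The group difference was -0.32 (95% interval -1.25 to 0.62, limma adjusted p = 0.758), and without the library labelled CD95ko 1 it was 0.22. The ratio of Bcl2l1 to Mcl1 level was 0.821 in control 1, 1.45 in control 2, and 0.584 and 1.11 in the libraries labelled CD95ko 1 and 2.

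Bcl2l2 encodes BCL-W, a further pro-survival homologue. It was at 19.6 and 10.9 TPM in the controls and at 33.6 and 19.0 TPM in the libraries labelled CD95ko 1 and 2. The library labelled CD95ko 2 lay between the controls, and the library labelled CD95ko 1 lay above both. The log2 fold change was 0.75 (95% interval -0.40 to 1.89, limma adjusted p = 0.517). It was 0.35 without the library labelled CD95ko 1, 0.36 without control 2, 1.14 without control 1 and 1.15 without the library labelled CD95ko 2. In GENCODE M21, 13.1% of the 25-base stretches of Bcl2l2 transcripts also occur in other genes. Most of these are in Gm20521, a gene on the same strand that had no entry among the genes listed.

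Bax encodes the pore-forming protein that moves from the cytosol to mitochondria on activation. It lies at chr7:45461697-45466898 on the reverse strand (GENCODE M21, GRCm38). The controls were at 259 and 307 TPM, respectively, and Bax was at 163 TPM in the library labelled CD95ko 1 and 162 TPM in the library labelled CD95ko 2. Both libraries labelled CD95ko were below both controls and differed from each other by 0.01 on the log2(TPM + 1) scale, against 0.24 between the controls. The group means were 283 ± 33.7 and 163 ± 0.948 TPM (SD, n = 2 each), a ratio of 0.574. The log2 fold change was -0.79 ± 0.29 SE (95% interval -1.45 to -0.13), with an unadjusted limma p of 0.0238 and an adjusted p of 0.265, so it did not pass the threshold. An absolute log2 fold change larger than that of Bax was found for 30.2% of the tested genes. Of its 25-base transcript stretches, 12.6% occur in other genes, mostly in Gm45808 on the same strand, which had no entry among the genes listed.

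Bak1 encodes the pore-forming protein that resides on mitochondria. It was at 85.4 and 79.5 TPM in the controls and at 112 and 78.1 TPM in the libraries labelled CD95ko 1 and 2. The library labelled CD95ko 1 stood above the other 3, and the library labelled CD95ko 2 was the lowest. Bak1 had a log2 fold change of 0.18 (95% interval -0.59 to 0.95, limma adjusted p = 0.844), and it was -0.075 without the library labelled CD95ko 1. Bak1 shares 21.5% of its 25-base stretches with other genes, almost all with Ggnbp1 on the opposite strand, which was at 3.13 to 6.62 TPM. Whether strand was used in counting is not given in the sources used here, so reads over the shared bases cannot be assigned to either gene.

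The level of Bax relative to Bak1 followed from these values. It was 3.04 in control 1 and 3.86 in control 2, and 1.46 and 2.07 in the libraries labelled CD95ko 1 and 2, so both ratios in the second group were below both in the first. Bax relative to Bcl2 was 31.0 in control 1 and 34.6 in control 2, against 20.0 and 15.1 in the libraries labelled CD95ko. Bax relative to Bcl2l1 did not separate the groups, at 2.99 and 2.94 in the controls, 3.13 in the library labelled CD95ko 1 and 1.46 in the library labelled CD95ko 2. Such ratios within a library do not depend on its scaling, and they were chosen after the values of the members were known.

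**Figure D2:**
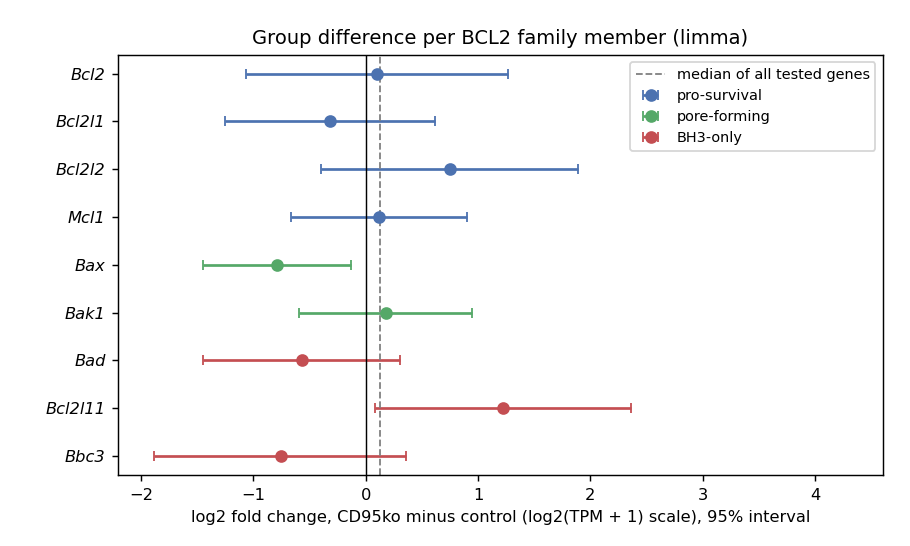
Log2 fold change of each tested member, CD95ko minus control on the log2(TPM + 1) scale (horizontal axis), with the 95% interval from limma over 2 libraries per group. The intervals of Bax (-1.45 to -0.13) and Bcl2l11 (0.08 to 2.36) do not reach 0, and none of the 9 passes adjustment over all tested genes.

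Bcl2l11 encodes BIM, a BH3-only protein that binds all the pro-survival members and can activate BAX directly. It lies at chr2:128126038-128162547 on the forward strand. It was at 11.4 TPM in control 1, 7.31 TPM in control 2, 18.0 TPM in the library labelled CD95ko 1 and 28.6 TPM in the library labelled CD95ko 2. Both libraries labelled CD95ko were above both controls, by 1.58 to 3.91-fold over the 4 pairs. The group means were 9.37 ± 2.91 and 23.3 ± 7.45 TPM (SD, n = 2 each). The log2 fold change of 1.22 ± 0.50 SE (95% interval 0.08 to 2.36) had an unadjusted limma p of 0.038 and an adjusted p of 0.302, and did not pass the threshold. Bcl2l11 was the only tested member whose group difference exceeded 1 on the log2 scale, and 13.5% of all tested genes had a larger absolute one.

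Bad encodes a BH3-only protein held inactive by phosphorylation downstream of growth factors. It was at 91.7 and 62.6 TPM in the controls and at 63.2 and 40.8 TPM in the libraries labelled CD95ko 1 and 2. Control 2 and the library labelled CD95ko 1 were nearly level, so the groups overlapped. Between the groups Bad differed by a log2 fold change of -0.57 (95% interval -1.45 to 0.31, limma adjusted p = 0.522), and it was -0.88 without the library labelled CD95ko 1, -0.26 without the library labelled CD95ko 2 and -0.30 without control 1. Bad shares 18.8% of its 25-base stretches with Gpr137 on the opposite strand, which was at 12.4 to 30.7 TPM.

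Bbc3 encodes PUMA, a BH3-only protein known as a target of p53. It was at 64.8 TPM in control 1, 34.2 TPM in control 2, 39.6 TPM in the library labelled CD95ko 1 and 19.0 TPM in the library labelled CD95ko 2. The library labelled CD95ko 1 lay between the controls, and the highest value was 3.42 times the lowest. The log2 fold change was -0.76 (95% interval -1.88 to 0.36, limma adjusted p = 0.504), smaller than the difference of 0.90 between the controls and of 1.02 between the libraries labelled CD95ko. It was -1.27 without the library labelled CD95ko 1, -1.21 without control 2, -0.25 without the library labelled CD95ko 2 and -0.30 without control 1. Trp53, the gene for p53, was at 94.2 and 69.5 TPM in the controls and at 88.2 and 31.0 TPM in the libraries labelled CD95ko 1 and 2, again with overlapping groups.

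The makeup of the summed transcripts of the 4 BH3-only members differed between the libraries. Bcl2l11 made up 6.8% and 7.0% of the summed BH3-only TPM in the controls, 14.9% in the library labelled CD95ko 1 and 32.3% in the library labelled CD95ko 2. Bad was the largest component of this sum in each library, at 46.2% to 60.2%. Other BH3-only genes, among them Bid and Bmf, are not in the sum. Bid was above Bad in control 2 (68.8 against 62.6 TPM) and in the library labelled CD95ko 2 (65.1 against 40.8 TPM), and below it elsewhere. Bmf was above Bad only in the library labelled CD95ko 2, at 42.1 TPM. Relative to Mcl1, Bcl2l11 stood at 0.108 and 0.102 in the controls and at 0.202 and 0.286 in the libraries labelled CD95ko. The controls were close in both of these measures of Bcl2l11, whereas the libraries labelled CD95ko differed from each other. Relative to Bcl2l1, Bcl2l11 stood at 0.132 and 0.07 in the controls and at 0.345 and 0.257 in the libraries labelled CD95ko, so the controls were not close there. These measures were chosen after the values of the members were known.

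Summed by role, the pore-forming sum separated the groups and the other sums did not. Within the pore-forming pair only Bax separated them, and the groups overlapped for Bak1. Bok, from the list of other BCL2 homologues, is not in this sum. It was at 74.5 and 59.3 TPM in the controls and at 52.8 and 49.1 TPM in the libraries labelled CD95ko (limma adjusted p = 0.642). Both libraries labelled CD95ko were thus below both controls for Bok too. Both libraries labelled CD95ko lay below both controls for 18.3% of all tested genes. Pro-survival transcripts summed to 220 and 196 TPM in the controls and to 183 and 241 TPM in the libraries labelled CD95ko 1 and 2, with overlap. Pore-forming transcripts summed to 345 and 387 TPM in the controls and to 275 and 240.0 TPM in the libraries labelled CD95ko, and Bax made up 59.3% to 79.4% of this sum. The BH3-only members summed to 168 and 104 TPM in the controls and to 121 and 88.3 TPM in the libraries labelled CD95ko, with overlap. The summed pore-forming level was 1.56 and 1.97 times the pro-survival level in the controls, 1.503 times in the library labelled CD95ko 1 and 0.997 times in the library labelled CD95ko 2. These sums are descriptions over a chosen set of genes and were not tested.

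**Figure D3:**
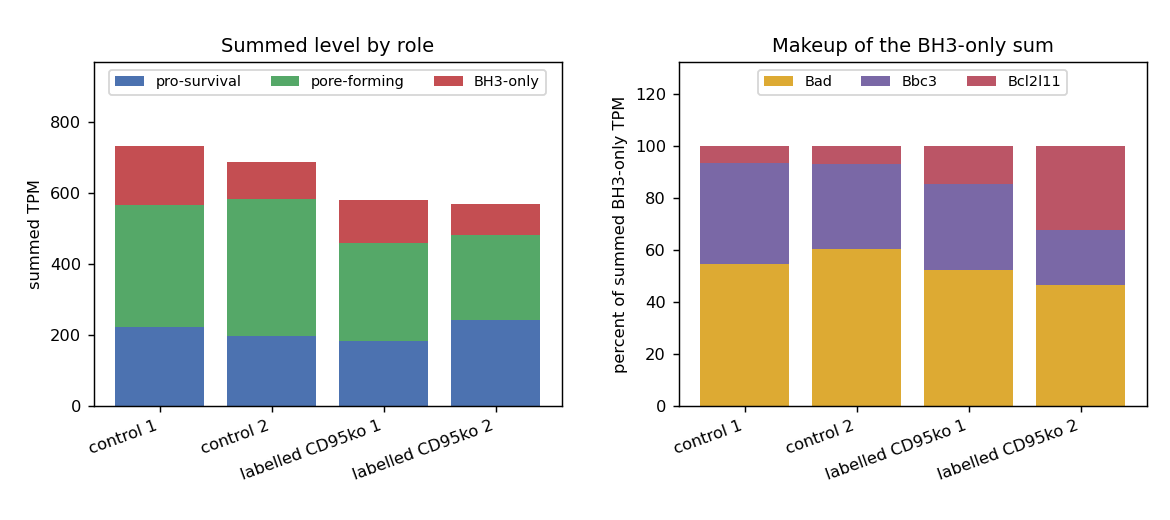
Left, summed TPM of the pro-survival, pore-forming and BH3-only members in each library, stacked from 0. Right, share of Bad, Bbc3 and Bcl2l11 in the summed BH3-only TPM, in percent, where Bcl2l11 goes from 6.8% and 7.0% in the controls to 14.9% and 32.3% in the libraries labelled CD95ko.

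For 7 of the 9 tested members, the libraries of at least 1 group differed from each other by more than the group means did. The exceptions were Bax and Bcl2l11. The corresponding share of all tested genes was not computed, so this count has no background beside it and shows nothing particular to the members. Differences between single libraries also vary more than differences between group means, which favours such a count. The median absolute difference over the 9 members was 0.54 between the controls, 0.62 between the libraries labelled CD95ko and 0.57 between the group means. Over all tested genes the corresponding medians were 0.45, 0.52 and 0.50. In control 2 relative to control 1, 6 of the 9 members were lower and 3 higher, where 23.7% of all tested genes were higher. Bbc3 (-0.90) and Bcl2l2 (-0.79) were the farthest down, beside a median of -0.36 over all tested genes. In the library labelled CD95ko 2 relative to CD95ko 1, Bcl2l1 (1.08) and Bcl2l11 (0.64) were the farthest up and Bbc3 (-1.02) and Bcl2l2 (-0.79) the farthest down. With 2 libraries against 2, an exact two-sided permutation test gave Bax and Bcl2l11 p = 0.333 each, the smallest p this design allows.

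**Figure D4:**
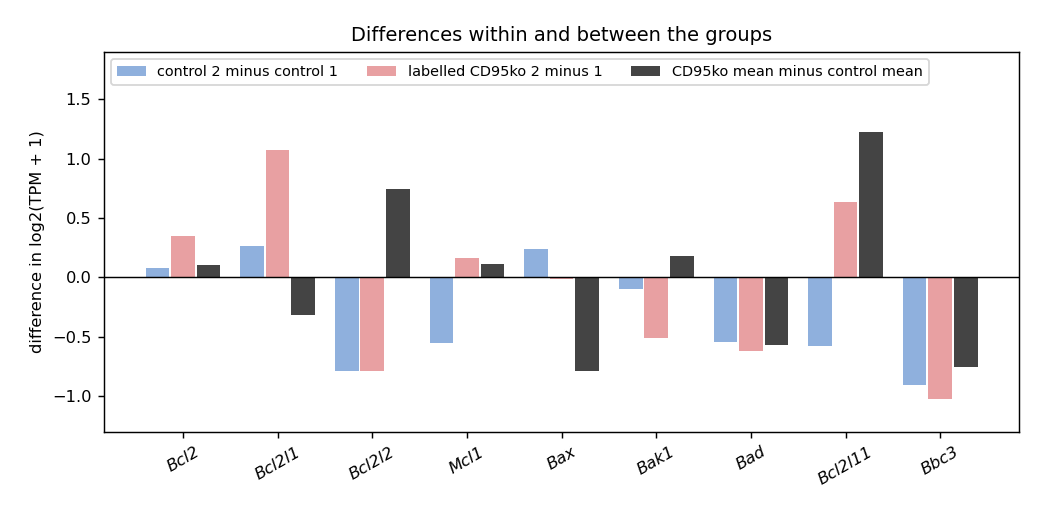
Difference in log2(TPM + 1) (vertical axis) for each tested member between the controls, between the libraries labelled CD95ko, and between the group means. For Bax and Bcl2l11 the dark bar, the group difference, is longer than both within-group bars. For the other 7 members at least 1 within-group bar is longer. The share of all tested genes in either class was not computed.

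Other BCL2 homologues and BH3-containing genes were read from a list of 17. Of these, 5 were listed at 0 in every library: Bcl2a1a, Bcl2a1b, Bcl2a1c and Bcl2a1d, the genes of the pro-survival A1 group, and Bcl2l10. Of 10 that were tested, 0 passed an adjusted p of 0.05 in limma and 3 had an unadjusted p under 0.05, all higher in the libraries labelled CD95ko (background 14.9%, 9.25% higher), and the median log2 fold change was 0.28. Bmf encodes a BH3-only protein that, like BIM, binds a dynein light chain. It was at 4.31 and 1.39 TPM in the controls and at 18.1 and 42.1 TPM in the libraries labelled CD95ko 1 and 2 (log2 fold change 3.01 ± 0.64 SE, limma adjusted p = 0.136). Both libraries labelled CD95ko were above both controls, as for 29.2% of all tested genes. The order of the 4 libraries was that of Bcl2l11, with control 2 lowest and the library labelled CD95ko 2 highest. Only 23.7% of all tested genes were higher in control 2 than in control 1, and the share of genes with this order was not computed.

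Bnip3 and Bnip3l encode mitochondrial proteins best known for mitophagy. Bnip3 was at 21.95 and 10.1 TPM in the controls and at 59.0 and 56.8 TPM in the libraries labelled CD95ko (log2 fold change 1.88 ± 0.46 SE, limma adjusted p = 0.147). Bnip3l was at 96.9 and 72.7 TPM in the controls and at 149 and 163 TPM in the libraries labelled CD95ko (limma adjusted p = 0.261). Bid, whose product links death receptors to mitochondria, was at 62.7 and 68.8 TPM in the controls, 21.6 TPM in the library labelled CD95ko 1 and 65.1 TPM in the library labelled CD95ko 2. The library labelled CD95ko 1 alone stood apart for Bid, which had a log2 fold change of -0.79 and of -0.01 without that library (limma adjusted p = 0.5 with all 4 libraries).

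Downstream of BAX and BAK, all 12 genes read from the list were tested. None passed the adjusted threshold in limma, 2 had an unadjusted p under 0.05 (1 higher, 1 lower, beside a background of 14.9%), and the median log2 fold change was 0.12. Cycs, the gene for cytochrome c, was at 87.2 and 115 TPM in the controls and at 40.9 and 28.1 TPM in the libraries labelled CD95ko (log2 fold change -1.53 ± 0.37 SE, limma adjusted p = 0.147). Both libraries labelled CD95ko were below both controls. Vdac1, a channel of the outer mitochondrial membrane, was at 274 and 224 TPM in the controls and at 455 and 426 TPM in the libraries labelled CD95ko (limma adjusted p = 0.239). Aifm1, the gene for apoptosis-inducing factor, was at 43.6 TPM in both controls and at 75.7 and 60.3 TPM in the libraries labelled CD95ko (limma adjusted p = 0.439). Casp9, the gene for the caspase of the apoptosome, was at 5.62 and 2.06 TPM in the controls and at 12.0 and 5.19 TPM in the libraries labelled CD95ko 1 and 2, with overlapping groups (limma adjusted p = 0.513).

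Of 12 transcription factors known to act on family members, Trp73 was listed at 0 in every library and 11 were tested. None passed the adjusted threshold in limma, while 5 had an unadjusted p under 0.05, all lower in the libraries labelled CD95ko (background 14.9%, 5.68% lower), and the median log2 fold change was -0.62. Ddit3, the gene for CHOP, was at 438 and 413 TPM in the controls and at 206 and 150 TPM in the libraries labelled CD95ko (log2 fold change -1.28 ± 0.30 SE, limma adjusted p = 0.144). Myc was at 716 and 659 TPM in the controls, 311 TPM in the library labelled CD95ko 1 and 106 TPM in the library labelled CD95ko 2 (log2 fold change -1.91 ± 0.46 SE, limma adjusted p = 0.147). Rela, the gene for the NF-κB subunit p65, was at 159 and 147 TPM in the controls and at 85.9 and 52.9 TPM in the libraries labelled CD95ko (limma adjusted p = 0.197). Jun was at 184 and 216 TPM in the controls and at 34.2 and 116 TPM in the libraries labelled CD95ko 1 and 2 (limma adjusted p = 0.213). Atf4, the stress-response factor upstream of Ddit3, was the fifth gene at an unadjusted p under 0.05, with 1014 and 896 TPM in the controls and 673 and 401 TPM in the libraries labelled CD95ko (limma adjusted p = 0.266). Both libraries labelled CD95ko lay below both controls for 6 of the 11, these 5 and Nfkb1 (59.92 and 65.02 TPM, against 80.24 and 65.38 TPM in the controls), where 18.3% of all tested genes did; the list was chosen with results known, and nothing particular to it follows. The FOXO genes did not separate the groups, with Foxo3 at 6.23 and 4.55 TPM in the controls and at 6.04 and 12.6 TPM in the libraries labelled CD95ko, and Foxo1 between 6.0 and 10.3 TPM throughout.

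A last list held 16 symbols of enzymes and partners that set the stability or binding of the family proteins, 2 of them the older and newer symbol of 1 ubiquitin ligase gene, found here as March5. Trim17 was listed at 0 in every library, and of 14 tested genes 0 passed the adjusted threshold in limma and 1, Pim2, had an unadjusted p under 0.05 (background 14.9%). Pim2, the gene for a kinase that phosphorylates BAD, was at 5.41 and 5.28 TPM in the controls and at 13.5 and 13.3 TPM in the libraries labelled CD95ko (log2 fold change 1.18 ± 0.51 SE, limma adjusted p = 0.326). Pim1, the gene for a related kinase, was at 51.1 and 26.5 TPM in the controls, 41.3 TPM in the library labelled CD95ko 1 and 135 TPM in the library labelled CD95ko 2, which alone stood apart (limma adjusted p = 0.443). Akt1, whose product also phosphorylates BAD, was at 249 and 226 TPM in the controls and at 332 and 336 TPM in the libraries labelled CD95ko (limma adjusted p = 0.444). Tmbim6, the gene for BAX inhibitor 1, was at 215 and 163 TPM in the controls and at 248 and 416 TPM in the libraries labelled CD95ko (limma adjusted p = 0.34). Huwe1, the gene for a ubiquitin ligase of MCL1, was at 22.6 and 11.7 TPM in the controls and at 31.7 and 21.95 TPM in the libraries labelled CD95ko, with overlapping groups (limma adjusted p = 0.558).

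**Figure D5:**
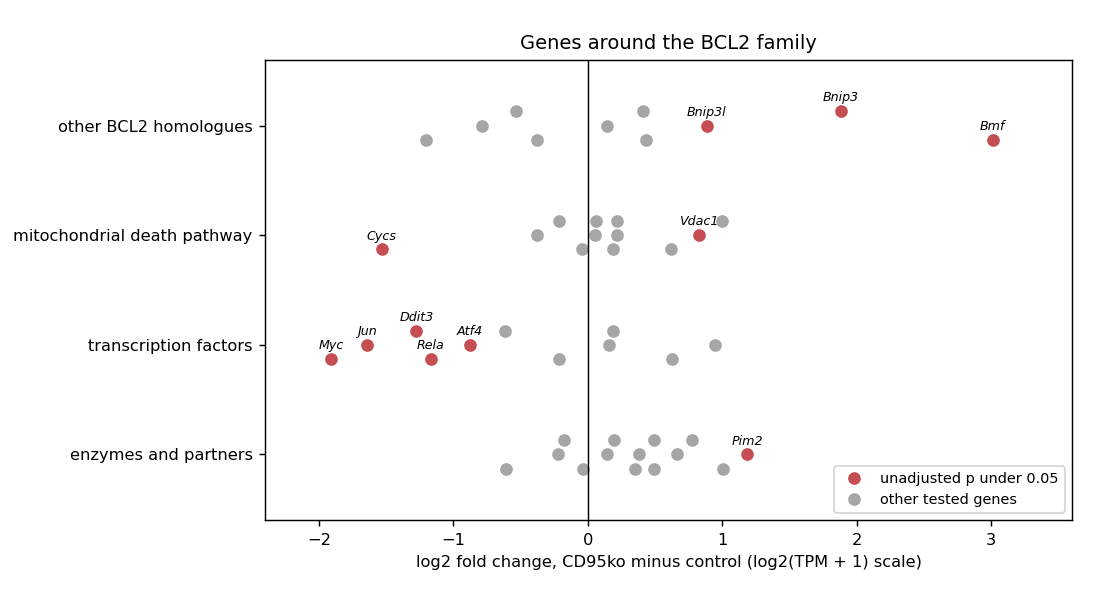
Log2 fold change, CD95ko minus control on the log2(TPM + 1) scale (horizontal axis), of the tested genes in 4 lists around the BCL2 family, 1 point per gene, with vertical offsets only to separate points. Named points have an unadjusted limma p under 0.05, and none of the genes shown passes adjustment over all tested genes.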

How the data were processed

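Poly(A)-selected RNA from 4 cultures was fragmented, tailed and amplified with a SMART-seq2-derived chemistry, per the labels' protocols. The authors deposited 1 table per library, in TPM, per the file headers. STAR 2.6.0, RSEM 1.3.0 and the build mm10 are named in the submitters' processing notes; the annotation is not given in the sources used here. TPM carries no depth, so no counting error could be given.

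Groups followed the sample titles. The filter required 1 TPM or more in 2 or more libraries, which left 11167 genes. Values were transformed to log2(TPM + 1), which understates changes of low genes, and compared with limma 3.58.1 in R 4.3.3 (eBayes with a mean-variance trend, no covariate, all 4 libraries), two-sided, with Benjamini-Hochberg adjustment over all tested genes and a threshold of 0.05. The script was tested on simulated data.

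The members and the 4 further lists were chosen with earlier results of these data known. Named were all members, the up to 4 genes per list with the smallest p, and genes listed at 0. Trp53, Foxo1, Foxo3, Atf4, Nfkb1 and Huwe1 were added as regulators of members, and Bok as a homologue, after their values had been seen. Other list genes enter only the counts, and one gene of the downstream list was left out of the lists and is not reported here. Alternatives were a pseudocount of 0.1, no filter, no trend, robust eBayes, quantile normalization, a replicate block and leaving out each library. Positions, overlaps and shared stretches used GENCODE M21 (GRCm38, the assembly of mm10), and upstream windows the RefSeq table, which held windows for the 9 members searched.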

Additional observations from a re-analysis of the deposited data

How the results depend on the processing

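No member passed an adjusted p of 0.05 under any alternative run. The number of members with an unadjusted p under 0.05, 2 as reported, was 1 without the variance trend, where Bax had a limma p of 0.0843, and 0 to 3 when 1 library was left out. It was 0 without control 1 and 0 without control 2. With 1 library left out, the lone library of a group is assumed to vary like the other group. Bax stayed lower (-0.91 to -0.67) and Bcl2l11 higher (0.91 to 1.54) in each of these fits.

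Under quantile normalization the median over all genes went from 0.13 to 0.002, and it turned Bcl2 to -0.13. Leaving out 1 library gave ranges that crossed 0 for Bcl2 (-0.072 to 0.28), Bcl2l1 (-0.85 to 0.22), Mcl1 (-0.16 to 0.39) and Bak1 (-0.075 to 0.44). The cause was not tested. Bcl2l2 ranged from 0.35 to 1.15, Bad from -0.88 to -0.26 and Bbc3 from -1.27 to -0.25 in the same fits. Among the settings with all 4 libraries, only the pseudocount and quantile normalization can move a fold change; every tested member but Bcl2 kept its direction under both.

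The number of all tested genes past the adjusted threshold, 6 as reported, was 0 at a pseudocount of 0.1, 0 with no filter, 0 with no trend, 0 under quantile normalization and 52 under robust eBayes, and 0 to 1034 when 1 library was left out, with 1034 without the library labelled CD95ko 1 and 194 without CD95ko 2. The number at an unadjusted p under 0.05, 1667 as reported, was 469 to 2713 in those fits. A replicate block gave 2 genes past the threshold; the numbers do not pair the libraries (correlation of deviations -0.081), and the block left the members' calls as they were.

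The log2 ratio of summed levels between the groups was -0.18 to 0.21 for pro-survival, -0.61 to -0.41 for pore-forming and -0.68 to 0.006 for BH3-only members when 1 library was left out. TPM gives no depth, and whether Pmaip1 lies below the reach of the libraries is unknown.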
